A study of Mus musculus with 5 samples.

Results

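U4 and U6 are small nuclear RNAs (snRNAs) of the spliceosome, and the counts listed under their names were examined in 5 melRNA-seq libraries of C57BL/6J mouse RNA. The members were chosen by name, snRNA_U4 and snRNA_U6, which are 2 of the 1042 names that the libraries list together, and both names stand in every library. melRNA-seq reads RNAs of medium length from end to end after the 5' end has been made ligatable, and an insert size of 115 to 255 nt is stated for the testis libraries. The labels repeat it for spermatogonia, for which the study's methods name a gel selection without a size. In 3 libraries, total RNA of whole testes at postnatal day 7 was left untreated, treated with TAP (named tobacco alkaline phosphatase in the labels) or treated with 5' polyphosphatase (5Pase), with 1 library each. The other 2 libraries are replicates of spermatogonia, germ cells that still divide by mitosis, isolated at postnatal day 7 by FACS with EpCAM, and their RNA was treated with RNA 5' pyrophosphohydrolase (RppH). The testis libraries were made with the TruSeq kit and those of spermatogonia with the NEBNext kit. The number of animals behind a library is not given in the sources used here. The names are those of repeats and small RNAs, so that neither the tissue nor the sort was checked against cell type markers.

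In the spliceosome, U4 and U6 arrive base-paired to each other and join U5 in one particle, the U4/U6.U5 tri-snRNP. U4 keeps U6 inactive until it is unwound, after which U6 pairs with the 5' splice site and with U2 to form the catalytic core. The 2 RNAs are made by different polymerases. U4, like U1, U2 and U5, is transcribed by Pol II and carries a trimethylguanosine cap, whereas U6 is transcribed by Pol III and keeps its triphosphate, methylated at the outermost phosphate. The adaptor is ligated only to a 5' monophosphate, which TAP and RppH leave on capped and on triphosphate RNAs, while 5Pase acts on triphosphates and not on caps.

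In the GENCODE M21 annotation, the U6 transcript Rnu6 is 107 nt long, so it lies 8 nt under the lower edge of the insert size stated for testis, while the U5 transcript Rnu5g, at 116 nt, lies just inside it. The counts give no read lengths, and whether the reads listed as U6 were longer than Rnu6 was not tested. Rnu6-ps2, an annotated copy of the same length, is identical to Rnu6 at 98 of 107 positions, and the counts do not tell such copies apart.

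The libraries listed between 1067851 and 3166394 reads under a name. A level in RPM is the number of reads for every 1000000 reads of 5.8S rRNA in that library, and levels are also given as a percent of the listed reads. 5.8S rRNA carries a monophosphate by itself and needs no enzyme, but it made up from 19.2% of the listed reads after 5Pase to 50.2% after TAP, and 39.1% and 25.9% in the spermatogonia replicates, so that both denominators are shown. As the method is meant to read each RNA from end to end, the counts were not divided by length. Whether the reads of a name were whole RNAs or pieces was not tested for any name. Each testis treatment has 1 library, so testis values have no replicate check and no test was made. Intervals are 95% intervals from the read counts, which compare libraries and cover counting error only. The reads carry no molecular identifiers, so the intervals are of reads and not of molecules.

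Part of the testis snRNA reads stand under 6 names that identify no RNA, the largest of them snRNA_small. They numbered 12233 in the untreated library, 165065 after TAP and 9954 after 5Pase, which were 74.0%, 53.5% and 78.3% of the snRNA reads of these libraries. In spermatogonia no snRNA read stood under such a name. For each U4 read of the TAP library there were 130.3 unidentified snRNA reads, and for each U6 read 1965. If every read listed as U4 or U6 came from that RNA, the testis counts are therefore the least that these libraries can hold. Whether they did, and how many of the unidentified reads belong to either RNA, was not tested.

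**Figure D1:**
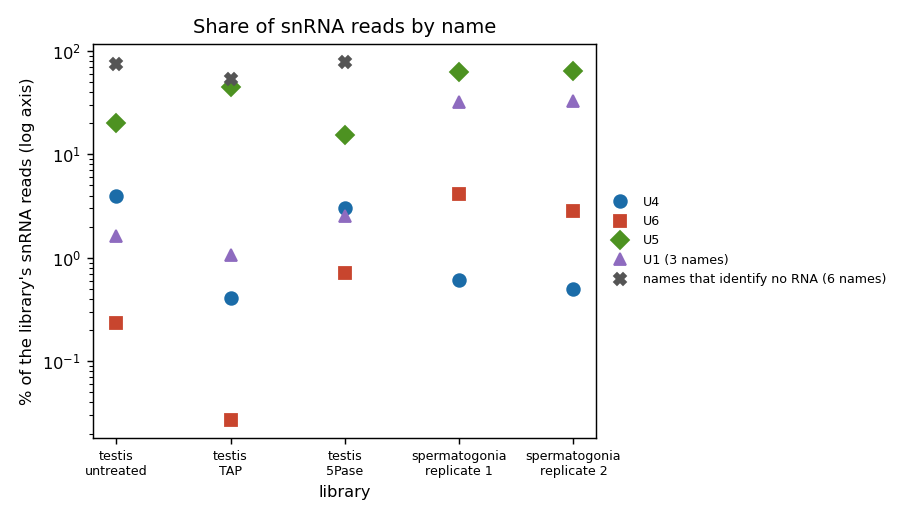
Share of each library's snRNA reads (percent, log axis) listed as U4, U6, U5, U1 or under names that identify no RNA; each marker is 1 library and a share of 0 is not drawn. Unidentified names hold 53.5% to 78.3% of the snRNA reads in the testis libraries and none in spermatogonia, and U6 lies below U4 in testis and above it in spermatogonia.

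snRNA_U4 had 647 reads in the untreated testis library, 1267 after TAP and 382 after 5Pase. Its level was 2047 RPM (1892 to 2211) without enzyme, 2364 RPM (2235 to 2498) after TAP and 1837 RPM (1657 to 2030) after 5Pase. The 3 testis levels thus lay close to one another. The 647 reads without any enzyme stand under the name of a capped RNA, whose cap the adaptor cannot join. Whether they came from whole, capped U4 was not tested. In spermatogonia U4 had 1638 reads in replicate 1 and 1945 in replicate 2. Replicate 1 had a level of 1324 RPM (1261 to 1390) and replicate 2 one of 3772 RPM (3606 to 3944), a mean of 2548 ± 1731 RPM (SD, n = 2). Ordered by level, replicate 1 was lowest, followed by 5Pase, untreated and TAP testis, and replicate 2 was highest. The spermatogonia replicates enclosed all testis libraries, and the untreated level did not differ from that after 5Pase beyond the counting intervals.

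As a share of the listed reads, U4 was 0.0557% in the untreated testis library (Wilson 95% interval 0.0516% to 0.0602%), 0.119% after TAP (0.112% to 0.125%) and 0.0353% after 5Pase (0.0320% to 0.0390%). Spermatogonia replicate 1 had 0.0517% (0.0493% to 0.0543%) and replicate 2 had 0.0976% (0.0933% to 0.102%). On this scale the TAP library was the highest of the 5 and the 5Pase library the lowest, and replicate 2 remained above replicate 1, by 1.89 times instead of the 2.85 times per 5.8S rRNA read.

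snRNA_U6 was rare in testis, with 39 reads in the untreated library, 84 after TAP and 91 after 5Pase. Its level was 123.4 RPM (87.7 to 168.7) without enzyme, 156.7 RPM (125.0 to 194.0) after TAP and 437.5 RPM (352.3 to 537.2) after 5Pase. The untreated and TAP levels overlapped in their intervals, and that after 5Pase lay above both. In spermatogonia U6 had 11044 reads in replicate 1 and 11183 in replicate 2, levels of 8928 RPM (8763 to 9096) and 21689 RPM (21289 to 22095), with a mean of 15309 ± 9023 RPM (SD, n = 2). Both germ cell libraries thus lay far above every testis library, although they differed from each other by 2.43 times per 5.8S rRNA read.

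As a share of the listed reads, U6 was 0.00336% without enzyme (Wilson 95% interval 0.00246% to 0.00459%), 0.00787% after TAP (0.00635% to 0.00974%) and 0.00841% after 5Pase (0.00685% to 0.0103%). In the spermatogonia replicates it was 0.349% (0.342% to 0.355%) and 0.561% (0.551% to 0.572%). Per listed read the TAP and 5Pase libraries of testis did not differ beyond counting error, and the untreated library lay below both.

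**Figure D2:**
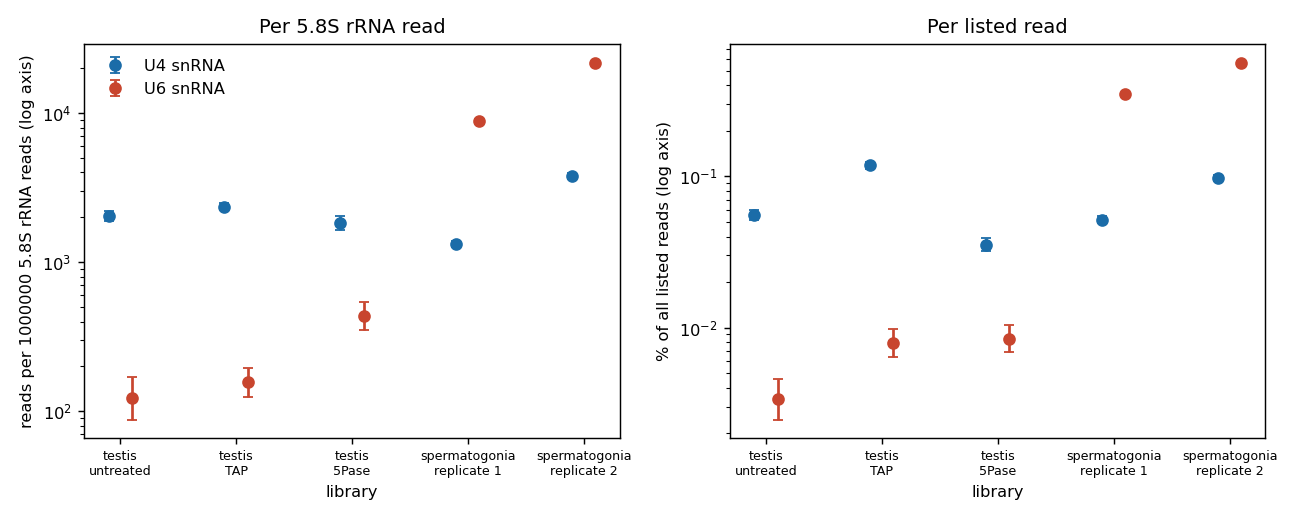
Level of U4 (blue) and U6 (red) in each of the 5 libraries, per 1000000 5.8S rRNA reads (left) and as a percent of all listed reads (right), both on log axes; points are single libraries and bars are 95% counting intervals. U4 stays between 1324 and 3772 RPM, whereas U6 goes from 123.4 RPM in untreated testis to 21689 RPM in spermatogonia replicate 2.

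To see how the 5' end of each partner affected its recovery, the treated testis libraries were divided by the untreated one. The level of U4 after TAP was 1.15 times that without enzyme (1.05 to 1.27) per 5.8S rRNA read and 2.13 times (1.94 to 2.34) per listed read, but only 0.196 times when both 5.8S rRNA and snoRNA reads were taken out of the listed reads. After 5Pase the ratio of U4 was 0.897 (0.791 to 1.02) per 5.8S rRNA read, not distinguishable from no change, and 0.634 (0.558 to 0.719) per listed read. Between the enzymes, U4 was 1.29 times higher after TAP than after 5Pase (1.15 to 1.44) per 5.8S rRNA read and 3.36 times (2.996 to 3.77) per listed read, and 0.469 times with 5.8S rRNA and snoRNA reads left out. Counting all unidentified snRNA reads as U4 would give 7.62 for TAP over untreated, 1.22 for 5Pase over untreated and 6.24 for TAP over 5Pase per 5.8S rRNA read. For the reads listed as U4, the gain with TAP per 5.8S rRNA read was thus small and none was detectable with 5Pase. Whether these reads came from capped RNAs was not tested.

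For U6 the ratio of TAP to untreated was 1.27 (0.869 to 1.86) per 5.8S rRNA read, an interval that includes no change, and 2.34 (1.60 to 3.42) per listed read. With 5.8S rRNA and snoRNA reads left out of the listed reads it was 0.215. After 5Pase the ratio was 3.55 (2.44 to 5.16) per 5.8S rRNA read and 2.50 (1.72 to 3.64) per listed read, above 1 under each of the 6 denominators tried. TAP gave 0.358 times as much U6 as 5Pase (0.266 to 0.482) per 5.8S rRNA read, but 0.935 times (0.695 to 1.26) per listed read, and above 1 with TMM or DESeq2 scaling, at 1.12 and 1.18. Over 346 names compared between the enzymes, 8.09% lay above 2-fold and 68.8% below 0.5-fold per 5.8S rRNA read, where U6 was among the lower names and U4 in neither group, and 18.8% and 35.3% per listed read, where U4 was among the higher names and U6 in neither group. For the reads listed as U6, the gain with 5Pase therefore held across denominators, while the order of the enzymes did not. Counting all unidentified snRNA reads as U6 would give 7.94 for TAP over untreated, 1.24 for 5Pase over untreated and 6.38 for TAP over 5Pase per 5.8S rRNA read, and 0.879 for 5Pase over untreated per listed read.

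Over the 323 testis names with at least 10 reads in the TAP and untreated libraries together, 29.1% lay above 2-fold and 45.5% below 0.5-fold after TAP per 5.8S rRNA read, and neither U4 nor U6 passed either limit. Per listed read the shares were 37.8% and 32.5%, and both U4 and U6 were then above 2-fold. The median log2 ratio over these names was -0.76 per 5.8S rRNA read and 0.12 per listed read, and U4 with 0.21 and U6 with 0.34 on the first scale exceeded it, with 206 and 211 names below them. After 5Pase, 41.1% of 314 names lay above 2-fold and 3.18% below 0.5-fold per 5.8S rRNA read. Per listed read the shares were 30.3% and 6.05%. On both scales U6 was among the higher names and U4 in neither group. The median log2 ratio per 5.8S rRNA read was then 0.81, with U6 above it at 1.82 and U4 below it at -0.16, where only 36 names were lower.

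**Figure D3:**
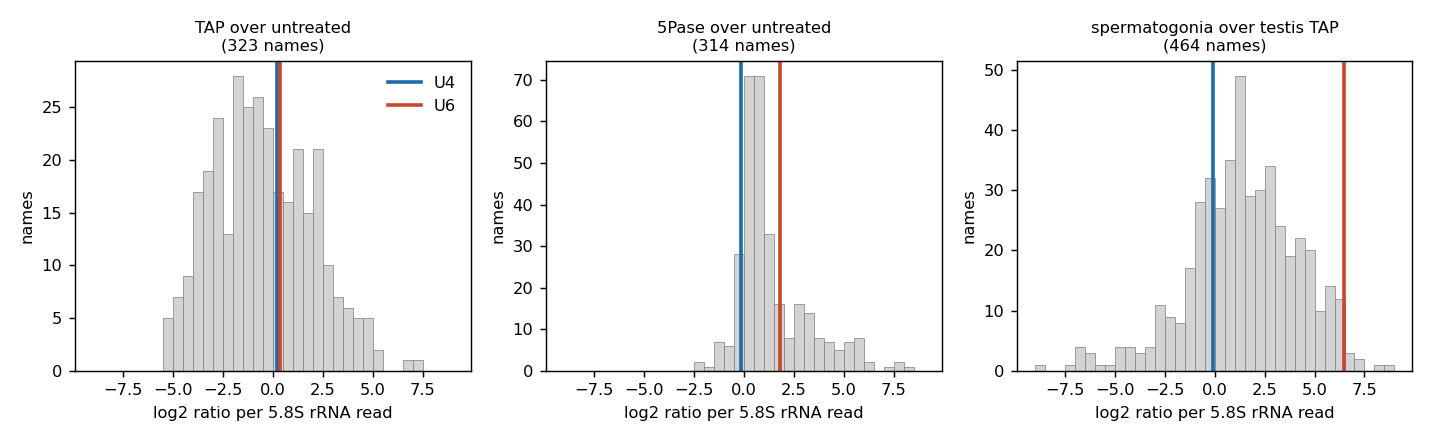
Histograms of the log2 ratio of levels per 5.8S rRNA read (0.5 reads added) over all names with at least 10 reads in the libraries compared, for TAP over untreated testis (323 names), 5Pase over untreated testis (314) and the mean of the spermatogonia replicates over testis TAP (464); lines mark U4 (blue) and U6 (red). The 2 lines lie together after TAP, at 0.21 and 0.34, and far apart in spermatogonia, at -0.08 and 6.46.

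U5 and the U1 names read in testis had higher ratios of TAP to untreated than the reads listed as U4, while U2 and U1b1 had no reads listed in the testis libraries. U5, which aligns the exons, had 3322 reads without enzyme, 138302 after TAP and 1959 after 5Pase, and its ratio of TAP to untreated was 24.6 (23.7 to 25.4) per 5.8S rRNA read. U1, which recognizes the 5' splice site first, is listed under variants, and the ratio of U1a1 was 7.33 (6.45 to 8.32) and that of U1b6, with 10 reads without enzyme, 4.36 (2.25 to 8.45). All 3 of these names with enough reads in testis were above 2-fold after TAP, beside the 29.1% of all names given above, and none of them after 5Pase. Their median log2 ratio was 2.87 after TAP and 0.87 after 5Pase, where the medians over all names were -0.76 and 0.81. U7, a capped RNA of histone mRNA processing, was 12.1 times higher after TAP (7.64 to 19.2) on 19 untreated reads. The intervals of U5, U1a1, U1b6 and U7 did not overlap that of U4, but with the unidentified reads counted as U4 its ratio of 7.62 would lie above those of U1a1 and U1b6. The U5 ratio after 5Pase was 0.896 (0.848 to 0.948), next to the 0.897 of U4.

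Within a library, U5 reads per U4 read need no denominator. They were 5.13 (4.72 to 5.59) in untreated testis and 5.13 (4.60 to 5.72) after 5Pase, where caps stay closed. After TAP there were 109 (103 to 115) U5 reads per U4 read, and the spermatogonia replicates had 102 (97.2 to 107) and 128 (122 to 134). The TAP value thus lay far above those of the other testis libraries and within the range of the spermatogonia replicates, which also differ from testis in cell type and kit. With the unidentified reads counted as U4, the testis values would be 0.258 untreated, 0.831 after TAP and 0.190 after 5Pase. The same did not hold for U5 per U6 read, which was 85.2 in untreated testis, 1646 after TAP, 21.5 after 5Pase, and 15.1 and 22.2 in spermatogonia.

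The Pol III list held 5S rRNA, 7SK, Y RNAs, BC1 and the sum of all tRNA names, without B1, B2 or other SINE repeats. In it, 4 of 5 entries with enough reads were above 2-fold after 5Pase per 5.8S rRNA read. The share over all names was 41.1%. Per listed read it was 2 of 5 entries, where the share was 30.3%. Their median log2 ratio after 5Pase was 1.27 per 5.8S rRNA read. 5S rRNA, a part of the large ribosomal subunit, had a ratio of 7.18 (6.91 to 7.46) after 5Pase. That of 7SK, which holds the elongation factor P-TEFb inactive, was 2.29 (2.05 to 2.54). Y1 and Y3, partners of the Ro60 protein, had ratios of 7.38 (3.27 to 16.7) and 2.42 (1.61 to 3.66), and the sum of all tRNA names 1.93 (1.89 to 1.98). U6 at 3.55 lay within the range of these ratios. After TAP, 3 of the 5 were above 2-fold on both scales, beside 29.1% of all names per 5.8S rRNA read and 37.8% per listed read. Per 5.8S rRNA read these were 5S rRNA at 4.14, 7SK at 3.44 and Y1 at 4.30, whereas Y3 was at 0.606 (0.385 to 0.952), tRNA at 0.827 (0.809 to 0.845) and U6 at 1.27. Per listed read Y3 and tRNA stood above 1 after TAP, at 1.12 and 1.52.

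**Figure D4:**
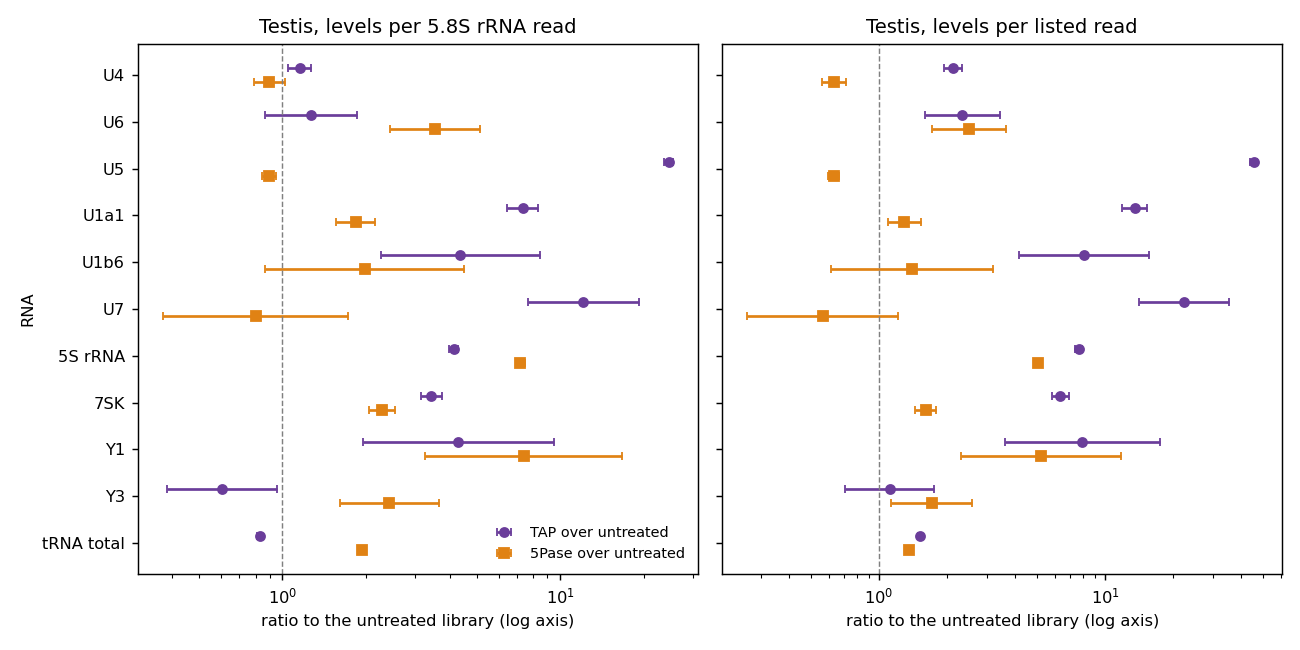
Ratio of the TAP (purple circles) and 5Pase (orange squares) libraries of testis to the untreated library for U4, U6, other capped snRNAs and Pol III RNAs, per 5.8S rRNA read (left) and per listed read (right), on log axes with 95% counting intervals. U5, U1 and U7 lie to the right of U4 after TAP, U4 stays near 1 on the left panel, and U6 is at 1.27 after TAP and 3.55 after 5Pase.

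Levels in spermatogonia were divided by that of the TAP library of testis, the testis library whose enzyme also opens caps and triphosphates. Replicate 1 had 57.0 times (46.0 to 70.6) and replicate 2 138.4 times (111.7 to 171.5) the U6 level of that library per 5.8S rRNA read, a mean of 97.7 ± 57.6 (SD, n = 2). Per listed read it was 44.3 and 71.3, a mean of 57.8 ± 19.1 (SD, n = 2). Against the 5Pase library the ratios were 20.4 and 49.6 per 5.8S rRNA read and 41.5 and 66.7 per listed read. U6 was therefore higher in both spermatogonia libraries than in either treated testis library on both scales.

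For U4 the replicates stood on opposite sides of the TAP library, replicate 1 with a ratio of 0.560 (0.521 to 0.603) and replicate 2 with one of 1.60 (1.49 to 1.71) per 5.8S rRNA read. The mean was 1.08 ± 0.732 (SD, n = 2), so that on this scale a difference of U4 from testis TAP was smaller than the spread between replicates. Per listed read both replicates were below the TAP library, at 0.436 and 0.822. They were also below it per sequenced read (0.665 to 0.974), with TMM (0.325 to 0.601) and with DESeq2 (0.310 to 0.633). Without 5.8S rRNA and snoRNA reads the ratios were 0.334 to 0.459. Against the 5Pase library, however, both replicates were higher per listed read, at 1.46 and 2.76. No direction can be given for U4.

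In this comparison 53.2% of the 464 names listed for both sources, with at least 10 reads in these libraries, lay above 2-fold in both replicates per 5.8S rRNA read, and 13.6% below 0.5-fold. Per listed read the shares were 44.2% and 18.5%. Against the 5Pase library, 35.4% of 458 names lay above and 31% below these limits per 5.8S rRNA read, and 45.4% and 23.6% per listed read. In all 4 cases U6 was among the higher names and U4 in neither group. Per 5.8S rRNA read against TAP, the median log2 ratio over the names was 1.37, and U6 reached 6.46, with 7 names above it and 456 below, while U4 was at -0.08 with 125 names below. Of the other spliceosomal snRNAs, U1a1 had ratios of 10.5 and 38.2 and U1b6 of 46.3 and 157.4, so that 2 of 3 names were above 2-fold in both replicates, whereas U5, at 0.524 and 1.87, straddled 1 in the same replicates as U4. U7 did too, at 0.350 and 1.36, and so did 5S rRNA at 0.383 and 1.63. Of the 4 entries of the Pol III list with enough reads, Y1 alone was above 2-fold in both replicates, at 2.55 and 5.52. Per listed read none was, and Y1 had 1.98 and 2.85. That list leaves out B1, B2 and other SINE repeats. Per 5.8S rRNA read, B1 names had log2 ratios from 3.03 (B1_Mur1) to 5.62 (B1F1), all above the median and below U6. Other SINE names spread more widely. ID4_ at 5.82, ID4 at 5.79 and ID2 at 5.78 lay above these B1 names and below U6. B3 at 3.98 lay among the B1 names, and B4 at 1.27 and MIR3 at -1.89 lay below them. The sum of tRNA names was at 1.64 and 3.71 per 5.8S rRNA read.

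Cell type, enzyme, kit and amount of RNA all differ between the spermatogonia and testis libraries, and the methods give no insert size for spermatogonia, while U6 lies just under that of testis. Their effects cannot be told apart. In bulk RNA, fewer cells of a type and less RNA per cell cannot be told apart either. If all unidentified snRNA reads of the TAP library were U6, the ratio of U6 would be 0.0290 in replicate 1 and 0.0704 in replicate 2, so the size and the direction of the difference both rest on what those reads are.

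The U6 to U4 ratio compares the partners within a library and depends on no denominator. There were 0.0603 U6 reads per U4 read (0.0436 to 0.0833) in untreated testis, 0.0663 (0.0532 to 0.0827) after TAP and 0.238 (0.190 to 0.299) after 5Pase. By the reads listed under the 2 names, U4 thus outnumbered U6 in every testis library, by 16.6, 15.1 and 4.20 times. Counting the unidentified snRNA reads as U6 would reverse this order. Spermatogonia replicate 1 had 6.74 U6 reads per U4 read (6.40 to 7.10) and replicate 2 had 5.75 (5.48 to 6.03), a mean of 6.25 ± 0.702 (SD, n = 2). There U6 outnumbered U4 in both libraries, and the replicates differed by 1.17 times (1.09 to 1.26), little beside their differences from testis but more than the counting error.

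From untreated to TAP-treated testis RNA, the U6 to U4 ratio changed by 1.10 times (0.744 to 1.63), which was not distinguishable from no change. After 5Pase it was 3.95 times that without enzyme (2.66 to 5.87) and 3.59 times that after TAP (2.61 to 4.94). Relative to the TAP library, spermatogonia replicate 1 stood 101.7 times higher (81.1 to 127.6) and replicate 2 86.7 times (69.2 to 108.7), a mean of 94.2 ± 10.6 (SD, n = 2). Relative to the 5Pase library, the ratio in spermatogonia was 26.2 ± 2.95 times higher (SD, n = 2). The spread between replicates was much smaller for this ratio than for the level of U6 or U4 alone. If the unidentified reads were counted as U4, the testis ratios would fall to 0.00303, 0.000505 and 0.00880, and if counted as U6 they would be 19.0, 130.3 and 26.3, above the ratios in spermatogonia.

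**Figure D5:**
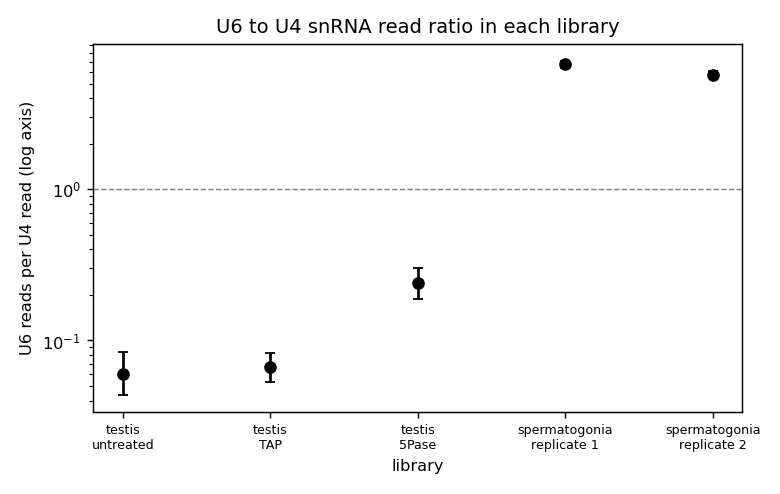
U6 reads per U4 read in each of the 5 libraries (log axis), with 95% counting intervals; the dashed line marks equal numbers. The 3 testis libraries lie between 0.0603 and 0.238 and both spermatogonia replicates at 5.75 and 6.74.

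The pattern of the partners over the 5 libraries was compared with those of the other names that had at least 10 reads in each library. Likeness was measured as the root mean square difference of log2 levels per 5.8S rRNA read, each centred on its own mean, and 168 names entered. Nearest to U4 were the H/ACA snoRNA SNORA44 at 0.43, a glycine tRNA with anticodon GCC at 0.60 and the 7SL-derived monomer PB1 at 0.63, where the median over all names was 1.77. Nearest to U6 were an alanine tRNA with anticodon TGC at 0.57, the SINE B1_Mus2 at 0.76 and a valine tRNA with anticodon AAC at 0.79, with a median of 3.42. The alanine tRNA had 19, 101 and 140 reads in the untreated, TAP and 5Pase libraries of testis and 11950 and 8278 in spermatogonia. U4 and U6 differed from each other by 3.01 on this scale, with U6 at rank 159 of the names by likeness to U4, and U4 at rank 59 by likeness to U6, nearer than the median name. These distances describe 5 libraries that share the 5.8S rRNA denominator.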

How the data were processed

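The authors used a MiSeq for sequencing, trimmed 3' adaptors by Cutadapt and assigned the reads with RepeatMasker, and they deposited raw counts of the reads assigned to each name, with no normalization. Versions, the repeat library and genomic positions are not given in the sources used here. For testis the study's methods state that reads without adaptor were discarded. The labels repeat the testis protocol for spermatogonia, and the methods were followed there. In the files, 2 lines with a name and no count were skipped, and the prefix or class added to some names was removed so that names match between libraries.

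From these counts, levels were computed per 1000000 5.8S rRNA reads and per listed read, and ratios with 95% intervals from the sum of the reciprocals of the counts as the variance of the log. Intervals of levels are exact Poisson intervals, and those of shares are Wilson intervals. The smallest depth is that of the 5Pase library, where 3 reads are 14.4 RPM. No test or model across names was fitted. Names past 2-fold were counted among those with at least 10 reads in the libraries compared, and for spermatogonia in both replicates. Alternatives changed the denominator (listed reads, sequenced reads as the study lists them, TMM library sizes from edgeR 4.0.16, DESeq2 1.42.0 size factors, listed reads without 5.8S rRNA and snoRNA), the testis base, the replicates, the pseudocount of 0.5, the minimum of reads and the assignment of unidentified snRNA reads. The spermatogonia replicates differed in composition, with a chi-square of 496 times its 512 degrees of freedom over 513 names. Python 3.11.15, numpy 2.4.6, scipy 1.17.1, matplotlib 3.10.9 and R 4.3.3 were used, and the intervals, counts and distances were tested on simulated data.

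The names given in the text were U4 and U6, the listed spliceosomal, other capped and Pol III small RNAs, the snRNA names that identify no RNA and the 3 names nearest in pattern to each member. The members and lists were chosen with earlier results of these data known. U11, U12, U4atac, U6atac, U8, U13, 7SL, 4.5S RNA, RMRP and RPPH1 were not analysed here. Sequences of the snRNAs are not reported here.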

Additional observations from a re-analysis of the deposited data

Results flagged for a closer look

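The 6 snRNA names that identify no RNA lie outside the comparisons of U4 and U6 and held 165065 reads in the TAP library of testis, above the 12233 of the untreated library. Per 5.8S rRNA read this was 7.96 times the untreated level (95% interval from the read counts 7.81 to 8.11), against 1.15 times for U4 and 1.27 times for U6. After 5Pase the ratio was 1.24 (1.20 to 1.27). These sums mix names that moved differently. After TAP the ratio was 24.8 for snRNA_musculus, 22.9 for snRNA_RNA, 7.82 for snRNA_small, 2.33 for snRNA_nuclear and 0.124 for snRNA_snRNA. The name snRNA_(cell had 15 reads after TAP and 0 without enzyme. After 5Pase the ratios went from 0.623 for snRNA_RNA to 3.57 for snRNA_nuclear. The share of U4 or U6 in these reads was not tested.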

How the results depend on the processing

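No paired analysis was possible because only spermatogonia has replicate numbers. The pseudocount left the U6 to U4 comparisons and the nearest names as they were, and the cause of the changes below was not tested.

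For U4, TAP over untreated was 2.13 per listed read, 1.87 per sequenced read, 2.18 with TMM and 2.03 with DESeq2, and reversed to 0.196 without 5.8S rRNA and snoRNA, a denominator of which 85.8% was snRNA after TAP. 5Pase over untreated was 0.634, 0.686, 0.540, 0.479 and 0.417 in the same order, and TAP over 5Pase 3.36, 2.72, 4.04 and 4.24, reversing to 0.469.

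For U6, TAP over untreated was 2.34, 2.05, 2.40, 2.23 and 0.215 in that order. 5Pase over untreated was 2.13 with TMM, 1.89 with DESeq2 and 1.65 without 5.8S rRNA and snoRNA. TAP over 5Pase was 0.935, 0.757 and 0.131 per listed read, per sequenced read and without 5.8S rRNA and snoRNA, and reversed to 1.12 with TMM and 1.18 with DESeq2. Spermatogonia over testis was 36.9 without 5.8S rRNA and snoRNA and 35.0 with the 5Pase base. Leaving out 1 spermatogonia replicate gave 57.0 to 138.4 for U6, 0.560 to 1.60 for U4, 5.75 to 6.74 for the U6 to U4 ratio and 86.7 to 101.7 for its quotient with testis TAP.

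With unidentified snRNA reads as U4, an alternative chosen after seeing the data for the ratios of each RNA, U4 was 7.62 for TAP over untreated, 1.22 for 5Pase over untreated, 6.24 for TAP over 5Pase and 0.00821 for spermatogonia over TAP. With them as U6, the same ratios of U6 were 7.94 and 1.24, reversing to 6.38 and 0.0497. With unidentified reads as U4, the U6 to U4 ratio was 0.00303 untreated, 0.000505 after TAP and 0.00880 after 5Pase, and its quotient 0.167 for TAP over untreated and 12368 for spermatogonia over TAP. With them as U6, the ratios reversed to 19.0, 130.3 and 26.3, the quotients were 6.87 for TAP and 1.39 for 5Pase over untreated, and spermatogonia over TAP reversed to 0.0479.

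With at least 50 reads, names above 2-fold fell from 94 to 40 after TAP and from 129 to 64 after 5Pase. That minimum also lets fewer names in, and their number was not kept, so the shares cannot be compared. Names below 0.5-fold after 5Pase rose from 10 to 19 of 314 per listed read, 3.18% and 6.05%. With 39 U6 reads in untreated testis, depth limits every U6 ratio there.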

Other observations

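snoU6-53, a small nucleolar RNA that guides a modification of U6, was chosen after its values were seen. It had 2865 reads in the untreated testis library, 1443 after TAP and 1552 after 5Pase, but 7 and 2 in the spermatogonia replicates. Its level was 9063 RPM, 2692 RPM and 7462 RPM in testis, and 5.66 RPM and 3.88 RPM in spermatogonia, where U6 itself was high. It thus lay far lower in both spermatogonia libraries than in every testis library, whereas U6 lay higher. Against the TAP library, 13.6% of the 464 names lay below 0.5-fold in both replicates per 5.8S rRNA read. Enzyme, kit and amount of RNA differ along with cell type, and values of other snoRNA names are not given here. A link between snoU6-53 and U6 was not tested.

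U2, the snRNA with which U6 pairs in the active spliceosome, is listed for spermatogonia with 75 and 113 reads, against 11044 and 11183 of U6. The name scRNA_embryo, which identifies no RNA either, had 39 reads in untreated testis, 1160 after TAP and 90 after 5Pase.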
